A study of Mus musculus with 2 samples.

Results

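The Tceal and Bex genes are 2 related families of small proteins, the transcription elongation factor A-like proteins and the brain expressed X-linked proteins, and they were followed here in fetal mouse esophagus at E18.5, shortly before birth. The 9 genes considered were Tceal1, Tceal3, Tceal5, Tceal6, Tceal7, Tceal8, Bex1, Bex2 and Bex4, and they were selected on a measured value of the same arrays, the MAS5 signal of Tceal7, which was far lower on the null-labelled array, with the question of whether its relatives share that difference. Of these 9 genes, 6 (Tceal1, Tceal7, Tceal8, Bex1, Bex2 and Bex4) had a probe set that the platform annotation gives to that gene alone, out of 18193 genes with such a probe set. Tceal3, Tceal5 and Tceal6 share 1 probe set. RNA came from fetal esophagus of BALB/c embryos labelled Myf5-/-:MyoD-/- and of wild-type BALB/c embryos, with 1 Affymetrix array for each genotype. The labels name neither the mutant alleles nor the number of embryos behind each RNA sample. With 1 array a genotype no test between genotypes was possible, and every difference below compares 2 RNA samples.

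Tceal and Bex genes lie together on the mouse X chromosome, in a cluster that placental mammals share and that also holds the Gprasp and Armcx genes. Their proteins are short. Tceal proteins resemble a part of the elongation factor TFIIS, which helps stalled RNA polymerase II to resume, and some act on transcription in a promoter-dependent way. Bex proteins are best known from neurons, where Bex1 and Bex3 bind the neurotrophin receptor p75NTR. Members of both families have also been studied in striated muscle: in mouse myoblasts the MyoD family of transcription factors activates Tceal7, and Bex1 is induced in regenerating mouse muscle. Myf5 and Myod1 belong to that family and commit cells to the skeletal muscle fate.

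The promoters of 3 members are shown because they frame the result: Tceal7 and Bex1 had the lowest ratios of the 6 genes, and Bex4 carries almost the same promoter as Bex1 but had a higher signal on the null-labelled array. Each sequence runs 5′ to 3′ from 250 bases before the annotated transcription start to 10 bases from it, and comes from RefSeq on GRCm38.p6. All 3 lie on chromosome X, Tceal7 at chrX:136223791-136224050 on the plus strand, Bex1 at chrX:136215504-136215763 on the minus strand and Bex4 at chrX:136138746-136139005 on the plus strand. Capitals mark E-boxes, the general motif CANNTG, of which MyoD family factors favour the form CAGCTG. None of the stretches in capitals has that form.
Tceal7: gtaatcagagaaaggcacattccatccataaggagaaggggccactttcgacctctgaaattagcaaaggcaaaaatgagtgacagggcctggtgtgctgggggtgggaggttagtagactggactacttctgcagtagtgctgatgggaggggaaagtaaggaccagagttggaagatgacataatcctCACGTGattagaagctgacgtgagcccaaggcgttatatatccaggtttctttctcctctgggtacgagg
Bex1: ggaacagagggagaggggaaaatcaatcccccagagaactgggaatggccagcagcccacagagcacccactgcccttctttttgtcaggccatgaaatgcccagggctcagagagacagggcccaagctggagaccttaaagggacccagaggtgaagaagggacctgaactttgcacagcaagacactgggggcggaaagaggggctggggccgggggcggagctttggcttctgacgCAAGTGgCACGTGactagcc
Bex4: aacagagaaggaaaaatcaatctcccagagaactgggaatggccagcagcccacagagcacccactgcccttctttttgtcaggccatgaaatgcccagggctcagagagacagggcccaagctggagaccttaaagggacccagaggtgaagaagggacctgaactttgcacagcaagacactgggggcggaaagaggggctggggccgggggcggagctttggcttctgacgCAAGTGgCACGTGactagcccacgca

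In windows of 300 bases (250 before the start and 50 from it), Tceal7 held 1 E-box, CACGTG, first base at -60. Bex1 held CAAGTG at -10 and CACGTG at -3, separated by 1 base. Bex4 held the same 2 E-boxes in the same order at -16 and -9. The form CAGCTG, which MyoD family factors favour, was in none of these 3 windows. Among the 9 members CAGCTG was found in 2, Tceal1 (at -21) and Tceal3 (at -175), against 18.3% of all 27025 genes with a window. CANNTG is so common (72.3% of all windows) that its presence in every member's windows separates nothing. The search covers both strands, since CANNTG and both of these forms of it read the same way on each. The windows of Bex1 and Bex4 aligned over 294 bases with 291 identical and 3 mismatched, beside 4 gapped bases. The next most similar members, Tceal3 and Tceal6, had 179 identical bases. A match here is a run of letters and not a measured binding site.

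The 2 arrays had the same trimmed mean signal, 1500, and 55.4% of probe sets on the null-labelled array reached a low-signal limit of 489, against 44.6% on the WT array. The limit is the median signal of all probe sets on both arrays, and lower signals were raised to it before ratios were taken. A gene below it on 1 array has only a bound ("at least"), and 13315 genes reached it on at least 1 array and count as measured. The targeted gene Myf5 read 496 on the null-labelled array and 4072 on the WT array, 8.22-fold lower. Myod1 read 1698 on the null-labelled array and 2001 on the WT array, which does not separate the genotypes. The sources used here do not say whether its probes lie in a deleted part, so Myod1 checks nothing. The ratio of 3′ to 5′ signal was 14.2 for beta-actin on the null-labelled array and 12.6 on the WT array. For Gapdh it was 6.96 on the null-labelled array and 10.5 on the WT array. Both controls were weaker at their 5′ ends on both arrays, and the part of this in the members' ratios was not tested.

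Of the 6 members, 2 were at least 2-fold lower on the null-labelled array, Tceal7 and Bex1, and 0 were at least 2-fold higher. Over all measured genes, 5.36% were lower by at least 2-fold and 6.01% were higher by that much. Both members were also at least 4-fold lower, which 1.07% of all measured genes were, and 0 were at least 4-fold higher, which 0.158% were. Because the genes were chosen with the Tceal7 value in view, nothing is read from these counts about the families. The median log2 ratio of the 6 members was -0.59, against 0.09 for all measured genes. Without Tceal7 and Bex1 the other 4 had a median of -0.31, from -0.82 to 0.62. Of the 5 relatives of Tceal7, Bex1 was the 1 past 2-fold, and the other 4 stayed within it.

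**Figure D1:**
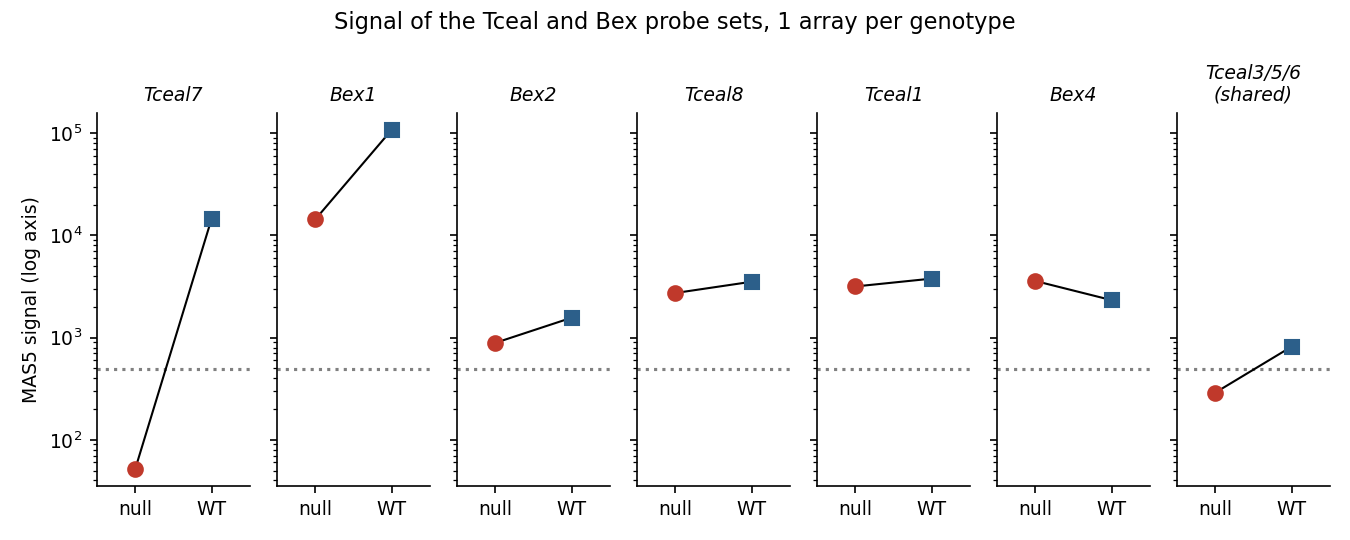
MAS5 signal (log axis) of the Tceal and Bex probe sets on the Myf5/Myod null-labelled array (red circles) and the WT array (blue squares), 1 array per genotype, with the low-signal limit of 489 as a dotted line. Tceal7 reads 52.1 on the null-labelled array, below the limit, and 14493 on the WT array, and Bex1 14366 and 107716, while Tceal8 and Tceal1 stay close to level, Bex2 is 1.76-fold lower and Bex4 1.54-fold higher; the last panel is the probe set that Tceal3, Tceal5 and Tceal6 share.

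Tceal7 (probe set 1435585_at) gave the largest difference of the members. Its signal was 52.1 on the null-labelled array, far below the limit, and 14493 on the WT array. With the limit in place it was at least 29.6-fold lower (log2 ratio at most -4.89), and 12 of the measured genes had a lower ratio, although bounds cannot be ordered among themselves. Whether the null-labelled tissue held fewer cells with Tceal7 RNA or less of it per cell cannot be told apart in bulk tissue, and this holds for each gene below.

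The other Tceal genes with their own probe sets were close to level. Tceal8 (1418171_at) read 2732 on the null-labelled array and 3521 on the WT array, 1.29-fold lower (log2 ratio -0.37). Tceal1 (1424634_at), a nuclear phosphoprotein that modulates transcription, read 3166 on the null-labelled array and 3777 on the WT array, 1.19-fold lower (log2 ratio -0.25). Both differences are smaller than the SD of 0.56 by which log2 ratios differ among the probe sets of a gene. It is pooled over 5455 genes, with bounds included. That spread is the only error these files give. It leaves out the variation between embryos, and since each of the 6 members has a single probe set, none has a second reading of its own.

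The probe set annotated to Tceal3, Tceal5 and Tceal6 together (1450961_a_at) read 290 on the null-labelled array, below the limit, and 816 on the WT array. It was at least 1.67-fold lower (log2 ratio at most -0.74). The signal cannot be given to any of the 3 genes, so they are left out of the counts. As deposited, with no limit, its 2 signals differ 2.81-fold.

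Bex1 (1448595_a_at), an adaptor of p75NTR signalling that also binds calmodulin, read 14366 on the null-labelled array and 107716 on the WT array. It was 7.50-fold lower (log2 ratio -2.91), with both signals well above the limit, so this ratio is measured on both sides and is not a bound. The difference is several times the SD of 0.56 between probe sets, which leaves out the variation between embryos. Among all measured genes, 63 had a lower ratio. Its WT signal lies in the brightest range of the array. Among the 36 genes with a WT signal at least as bright, 4 including Bex1 were at least 2-fold lower, and among the others the median log2 ratio was 0.60 and the lowest -3.07, further down than Bex1.

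Bex2 and Bex4 lay closer to level than Bex1. Bex2 (1417388_at), whose human counterpart regulates apoptosis in breast cancer cells, read 888 on the null-labelled array and 1564 on the WT array, 1.76-fold lower (log2 ratio -0.82). Bex4 (1428209_at), whose human counterpart associates with microtubules, was the only member with a higher signal, 3580 on the null-labelled array and 2326 on the WT array, 1.54-fold higher (log2 ratio 0.62). Both differences are larger than the SD of 0.56 between probe sets and smaller than 2-fold. Bex1 and Bex4 thus had opposite signs although their promoter windows, shown above, differ at 3 aligned bases. How far their transcripts are alike, and whether a probe set of either also binds RNA of the other, was not tested, and the ratios of both are uncertain to that extent. Older names overlap, since the RefSeq table lists Bex1 as a synonym of Bex2 and Bex4 as a synonym of Bex1. The names here follow the Entrez gene IDs, and the RefSeq accessions of the Bex1 and Bex2 probe sets match those of the genes named.

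**Figure D2:**
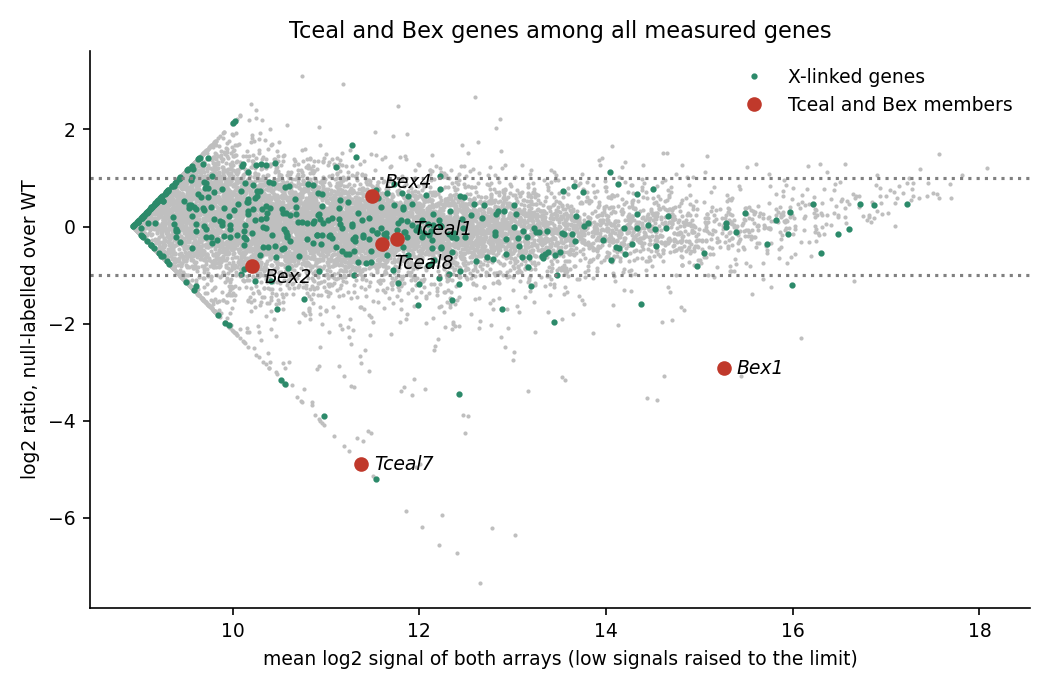
Log2 ratio, null-labelled over WT, for each of 13315 measured genes, against the mean log2 signal of both arrays with low signals raised to the limit; X-linked genes are green, the 6 members red, and dotted lines mark 2-fold. Tceal7 (-4.89) lies on the lower edge formed by genes below the limit on the null-labelled array and Bex1 (-2.91) lies among the few bright genes far below the lower 2-fold line, while the other 4 members lie inside the 2-fold lines.

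The rest of the X-linked cluster was measured through 16 further genes, of which 12 had a probe set and 10 were measured. Among these 10, 1 was at least 2-fold lower and 0 higher, with a median log2 ratio of -0.26 and a range of -1.07 to 0.22. The closest relatives were nearly level. Tceal9, also known as Wbp5, read 17531 on the null-labelled array and 22444 on the WT array (log2 ratio -0.36). Bex3, the p75NTR-associated cell death executor, read 7122 on the null-labelled array and 8473 on the WT array (log2 ratio -0.25). Bex6, the one relative outside the X chromosome (chromosome 16), and Armcx5 were below the limit on both arrays. Tceal2, Tceal4, Arxes1 and Arxes2 had no probe set of their own in the annotation used and were not analysed here.

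Gprasp1, which sorts G protein-coupled receptors to lysosomes, was the relative at least 2-fold lower. It read 3285 on the null-labelled array and 6874 on the WT array, 2.09-fold lower. Its second probe set went the other way, 775 on the null-labelled array and 316 on the WT array, at least 1.58-fold higher, so the gene has no settled direction. Armcx4 read 2127 on the null-labelled array and 3564 on the WT array (log2 ratio -0.74). Armcx3, a mitochondrial protein that acts in mitochondrial transport in neurons, had log2 ratios of -0.29 and -0.77 at its 2 probe sets. Gprasp2, Bhlhb9, Armcx1 and Armcx2 had ratios between -0.26 and -0.10 at their brightest probe sets, and Armcx6 had 0.22.

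Along the chromosome, in the gene order of GRCm38.p6, the stretch from Tceal6 to Tceal1 holds 30 protein-coding genes, of which 12 were measured. Bex1 and Tceal7 lie next to each other except for LOC115489115, a predicted gene with no probe set here, and their promoters run on opposite strands. On the far side of Tceal7 follow Tceal9 and Bex3, at log2 ratios of -0.36 and -0.25. On the far side of Bex1 follow Tceal5, which has no probe set of its own, then Tceal8 (-0.37) and Bex4 (0.62). In this stretch 3 of the 12 measured genes were at least 2-fold lower, against 5.36% of all measured genes, and 0 were higher by that much. They were Tceal7, Bex1 and, at its brightest probe set, Gprasp1. The neighbours Bex1 and Tceal7 were the 2 at least 4-fold lower, against 1.07% of all measured genes. Since the genes were chosen on the Tceal7 value, nothing is read from these counts about the stretch.

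**Figure D3:**
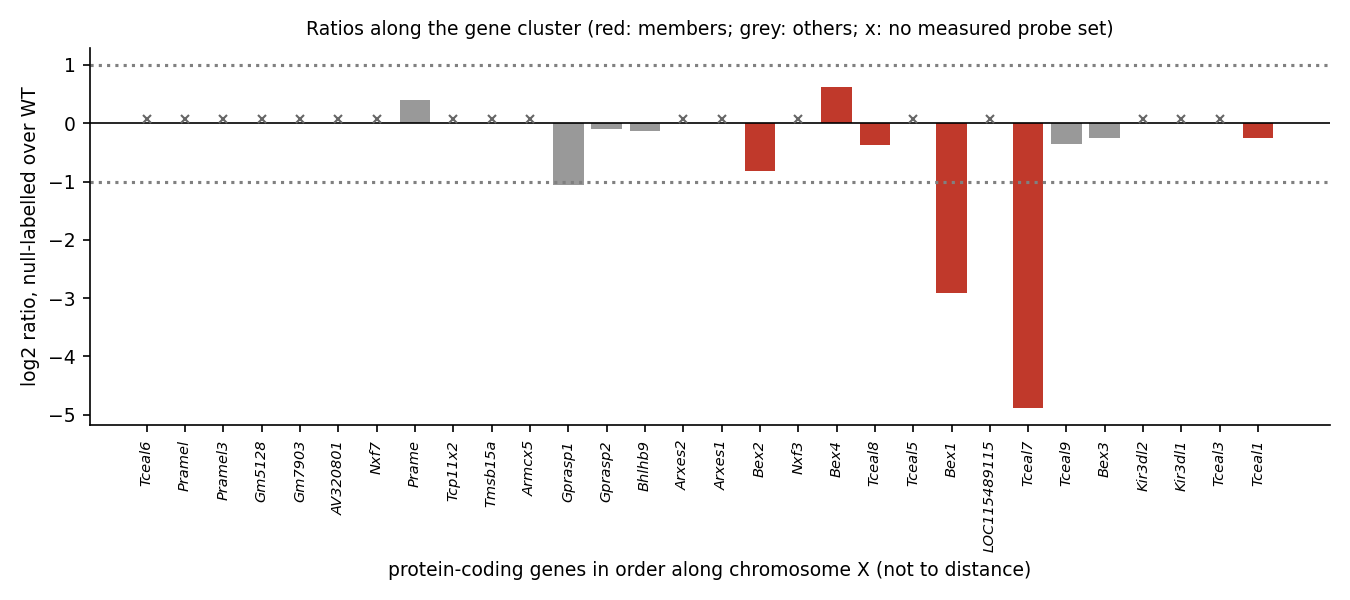
Log2 ratio, null-labelled over WT, for the 30 protein-coding genes from Tceal6 to Tceal1 in their order on chromosome X, drawn without distances; members are red, other genes grey, and a cross marks a gene with no measured probe set. The bars of Bex1 (-2.91) and Tceal7 (-4.89) reach furthest down, and the other 10 measured genes range from -1.07 (Gprasp1) to 0.62 (Bex4), with Bex2 at -0.82.

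All 9 members are X-linked, so the arrays' X-linked genes as a whole were examined. Of 442 measured X-linked genes, 6.56% were lower by at least 2-fold and 6.11% higher. At 4-fold the shares were 1.81% lower and 0.452% higher, and the median log2 ratio was 0.06. Xist, the RNA that coats the inactive X chromosome, read 24254 on the null-labelled array and 42465 on the WT array at its brightest probe set. The Y-linked genes Eif2s3y and Kdm5d read 2402 and 1159 on the null-labelled array, against 10.6 and 160 on the WT array. Uty was below the limit on both arrays at its brightest probe set. Another Uty probe set read 563 on the null-labelled array and 24.8 on the WT array, at least 1.15-fold higher. Ddx3y had no probe set of its own. Xist was thus bright on both arrays. Eif2s3y, Kdm5d and that Uty probe set were past the limit on the null-labelled array alone. The 2 RNA samples thus differ in Y-linked signal as well as in genotype, and with 1 array each these cannot be separated. The part of this in the members' ratios was not tested.

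TFIIS genes, which name the Tceal family, were tabulated beside it. Of 5 genes, all measured, 0 had a log2 ratio past 2-fold with low signals raised to the limit (median 0.56). Tcea1, the general TFIIS gene, read 4594 on the null-labelled array and 8328 on the WT array (log2 ratio -0.86), and its second probe set had 0.23. Tcea2, Tcea3, Tceanc and Tceanc2 had ratios from 0.35 to 0.85, of which that of Tcea3 is a bound.

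Genes of neurotrophin receptor signalling, with which Bex proteins interact, were measured for 7 of 11 genes, with 0 ratios past 2-fold once low signals were raised to the limit (median log2 ratio 0.17). Ngfr, which encodes p75NTR, read 176 on the null-labelled array, below the limit, and 783 on the WT array, at least 1.60-fold lower, so a difference of 2-fold or more is possible. With the limit at the 25th percentile its log2 ratio was -2.15. Its other 2 probe sets were below the limit on both arrays. Maged1, a p75NTR-binding protein, read 3851 on the null-labelled array and 5261 on the WT array (log2 ratio -0.45). The receptor Ntrk2 read 3606 on the null-labelled array and 2735 on the WT array (log2 ratio 0.40).

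Cell type markers moved beside the members as follows. All 10 striated muscle markers were at least 4-fold lower, with a median log2 ratio of -6.07 and a summed signal of 6551 on the null-labelled array and 386421 on the WT array. The sum runs over the brightest probe set of each gene, and the second Ckm probe set, at least 1.19-fold higher, went the other way. Of 18 markers of enteric and autonomic neurons, a kind of cell in which Bex genes are known to be abundant, 16 were measured, 4 were at least 2-fold lower (Dcx, Nefl, Ret and Snap25) and 0 higher. The median of that list was -0.55 and the range -1.50 to 0.23, and its summed signal was 22184 on the null-labelled array and 32862 on the WT array. Other probe sets of Elavl4, Stmn2 and Stmn3 had ratios above 0 (0.28 to 0.83). The second Snap25 probe set also went the other way, at least 1.19-fold higher, and that of Ret had a bound of -0.02. Further probe sets were lower at Nefl (at least 3.78-fold), Prph (at least 2.22-fold and at least 1.70-fold) and Ina (1.15-fold). Of 7 glial and Schwann cell markers 5 were measured and 0 were 2-fold apart at their brightest probe sets (median -0.12). Another Sox10 probe set read 1099 on the null-labelled array and 526 on the WT array, 2.09-fold higher, against -0.29 at the brightest. Of 7 smooth muscle markers, 1 was at least 2-fold higher (Mylk) and 1 lower (Des), with a median of 0.25. The second Des probe set was at least 1.78-fold higher. Other probe sets of Mylk had log2 ratios of 0.08 and 1.86. The 9 squamous epithelium markers, the lining of the labelled tissue, were all measured, with 1 at least 2-fold lower, 0 higher and a median of -0.16. The lower one was Krt14, which read 2248 on the null-labelled array and 5532 on the WT array, with a second probe set at least 3.71-fold lower. The 6 fibroblast markers had a median of 0.23, the 3 of 4 endothelial markers that were measured 0.07, and the 5 of 8 measured markers of neighbouring organs 0.53. In that last list Rag1, the lymphocyte recombinase, read 2823 on the null-labelled array and 256 on the WT array, at least 5.77-fold higher. The brightest Cd8a probe set read 677 on the null-labelled array and 1492 on the WT array, and 3 other probe sets of the gene had ratios above 0. Summed signals, null-labelled array first, were 625599 and 304797 for smooth muscle, 562558 and 473853 for squamous epithelium, and 449358 and 313500 for fibroblasts. In the same order they were 15817 and 22991 for glia, 3919 and 4737 for endothelium, and 7183 and 4139 for neighbouring organs. The part of these cell types in the members' ratios was not tested.

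**Figure D4:**
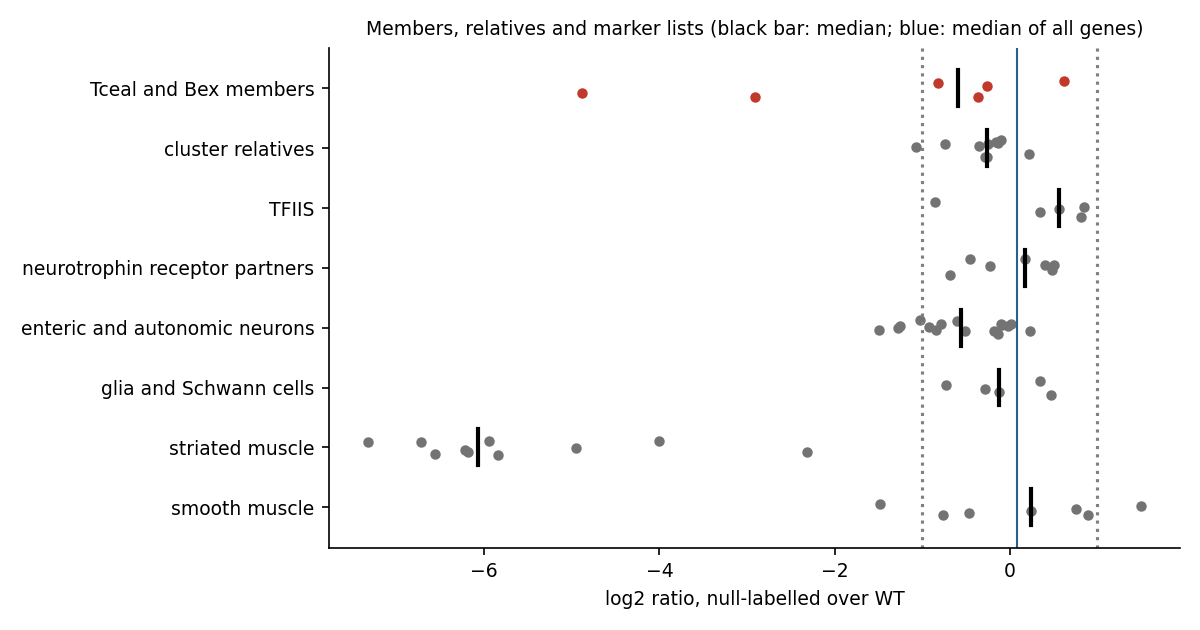
Log2 ratio, null-labelled over WT, for the measured genes of 8 lists, each point the brightest probe set of a gene, with the list's median as a black bar, the median of all measured genes (0.09) as a blue line and 2-fold as dotted lines. Tceal7 and Bex1 fall in the range of the striated muscle markers (-7.33 to -2.32), and the other 4 members (-0.82 to 0.62) overlap the ranges of all the other lists drawn.

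The 5 measured genes nearest to Tceal7 were found by the Euclidean distance between log2 signals on the 2 arrays, with low signals raised to the limit. They were Klhl41, Actn2, Cavin4, Atp1b4 and Csrp3, at distances of 0.05 to 0.33. Klhl41, the nearest, read 27.7 on the null-labelled array and 14045 on the WT array, at least 28.7-fold lower. Atp1b4 read 354 on the null-labelled array and 18010 on the WT array, at least 36.8-fold lower, and it is the only X-linked gene of the 5. For 4 of the 5 the signal on the null-labelled array was below the limit, so the distance rests mainly on the WT array. Likeness over 2 arrays shows only that the signals are close.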

How the data were processed

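Total RNA from E18.5 fetal esophagus (6 µg per array, biotin-labelled cRNA) was measured on 2 Affymetrix arrays, 1 per genotype. The authors deposited a linear signal intensity for each probe set, computed with MAS5 according to the submitters' processing notes; version, settings and detection calls are not stated in the sources used. MAS5 combines the probes of a probe set and scales each array, and the trimmed mean (2% off each end) was 1500 on both.

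Of 45101 probe sets, 64 controls were left out; 34945 of the others have 1 gene symbol, 932 several and 9160 none. Symbols came from GEO's platform annotation and were updated by Entrez ID against RefSeq's GRCm38.p6 table, which held the ID of 34741 probe sets. A gene took its brightest probe set by mean signal. Signals below 489, the median over both arrays, were raised to it; 2969 of 13315 measured genes therefore have a bound. Genes were counted by a 2-fold rule, since no test is possible. Precision is limited by the number of arrays.

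The members and lists were chosen with earlier results of these data known. The text names every member and its probe sets, the listed relatives, the targeted and sex-linked genes, markers by count, and the 5 genes nearest to Tceal7; neuron markers at least 2-fold apart, second probe sets, Des, Krt14, Rag1 and Cd8a are named after their values were seen. Promoter windows of all 9 members came from RefSeq (GRCm38.p6) and were aligned globally with free end gaps. Alternatives were median centring, quantile normalization, loess (span 0.3), the limit moved to the 25th or 75th percentile, a pseudocount of 16 with no limit, the median of probe sets, no _x_at or _s_at probe sets, and a 4-fold threshold. The ratio calculation was tested on simulated data. Python 3.11.15, numpy 2.4.6, pandas 2.3.3, statsmodels 0.14.6 and biopython 1.88 were used.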

Additional observations from a re-analysis of the deposited data

How the results depend on the processing

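Tceal7 and Bex1 stayed lower, and Bex4 higher, in all 8 alternatives run on ratios. The 2 on the choice of probe sets change no member, since each has a single probe set. Moving the limit to the 25th or 75th percentile left Bex1 (-2.91), Bex4 (0.62), Tceal8 and Tceal1 unchanged, since their signals lie above it. Median centring moves every ratio by the same amount. Bex1 ranged from -3.09 to -2.91 on the log2 scale, Bex4 from 0.54 to 0.69, Tceal8 from -0.45 to -0.28 and Tceal1 from -0.34 to -0.16. The size at Tceal7 is set by the limit: its log2 ratio was -6.43 when the limit stood at the 25th percentile, -3.37 at the 75th and -7.74 with no limit and a pseudocount of 16. For Bex2 the ratio was -0.16 when the limit stood at the 75th percentile, where its null-labelled signal is raised. Quantile normalization took Bex2 just past 2-fold, which made 3 members at least 2-fold lower in place of 2. Over all genes, those at least 2-fold lower numbered 1232 when the limit stood at the 25th percentile, 383 at the 75th and 1704 with no limit (714 as reported); those at least 2-fold higher numbered 2742, 148 and 3548 in the same order, and 449 with loess (800 as reported). At the 4-fold threshold 142 genes were lower and 21 higher. The median log2 ratio of all genes lay between -0.03 and 0.17 over the alternatives. Gprasp1 had -0.20 with the median of its probe sets. No paired analysis was possible because each genotype has 1 array, and no replicate could be left out. The limit of 489 stands in for detection calls, so signals under it carry no order.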

Other observations

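Beyond Tceal7 and Bex1, 6 X-linked genes were at least 4-fold lower on the null-labelled array and 2 at least 4-fold higher, out of 442 measured; they were chosen after their values were seen. Smpx, a small protein of striated muscle, read 522 on the null-labelled array and 7773 on the WT array, 14.9-fold lower. Srpk3, a muscle protein kinase, read 1662 on the null-labelled array and 18064 on the WT array, 10.9-fold lower at the brightest of 4 probe sets. Itgb1bp2, the muscle protein melusin, read 279 on the null-labelled array and 4649 on the WT array, at least 9.51-fold lower. Atp1b4 was at least 36.8-fold lower, Fndc3c1 at least 8.98-fold and the amino acid transporter Slc6a14 4.07-fold. The higher ones were Firre, a nuclear RNA, at least 4.38-fold, and Cldn34c1, at least 4.52-fold.

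The letters CACGTG occurred in the promoter windows of 8 of the 9 Tceal and Bex members, all but Bex2, against 8.09% of 27025 genes with a window. This form of the E-box was singled out after the windows were read. It was present in members with a far lower signal on the null-labelled array (Tceal7, Bex1) and in those within 2-fold (Tceal1, Tceal8, Bex4). Of the relatives Bex3 and Tceal9, searched in the same way, Bex3 held CACGTG (at 28) and Tceal9 did not. The members are related genes of 1 cluster, so they are not independent cases, least of all Bex1 and Bex4, which share nearly all of their window.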
